A study of Mus musculus with 2 samples.

Results

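Transcript levels of 8 genes of cholesterol synthesis were followed across the cell types of mouse bone marrow. The genes are Hmgcs1, Idi1, Fdps, Fdft1, Sqle, Cyp51, Msmo1 and Insig1. All 8 symbols were found among the 31053 genes of the deposited matrices. They were chosen as target genes of the transcription factor SREBP2, by a rule that uses no measured value, although the set was proposed with earlier results of these data known. The name of the set also covers LDL uptake, but no gene of uptake is among the 8. A separate list of genes of uptake and lysosomal sterol release is therefore counted, but no level of an uptake gene is given. The study profiled C57BL/6 bone marrow cells by 10x Genomics 3′ single-cell RNA sequencing in 2 libraries. The null-labelled library has the genotype Apoe(-/-), Itgb3(-/-), and the control-labelled library has the genotype Apoe(-/-), Itgb3(+/+). Both labels therefore share the Apoe deletion, both carry the disease label atherosclerosis, and both come from mice of 6 months. The labels do not say how many animals went into a library, nor their diet or sex.

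Cholesterol is made from acetyl-CoA through mevalonate, isoprenoid diphosphates, squalene and lanosterol. When sterols in the endoplasmic reticulum are low, the SCAP protein escorts SREBP2 to the Golgi, where proteases release its active part, and SREBP2 then raises transcription of the synthesis enzymes and of genes of LDL uptake. When sterols are plentiful, INSIG proteins hold SCAP back in the endoplasmic reticulum. Apoe encodes the apolipoprotein E that clears remnant lipoproteins, and mice without it have high plasma cholesterol. Dividing cells of the marrow need sterols for new membranes, while late neutrophils and reticulocytes no longer divide.

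With 1 library per genotype there was no replicate, so no test and no p-value is given. Every interval is an exact 95% interval that covers counting error only, and for a count of 0 the limit given is the level of 3 UMIs. Levels are counts of unique molecular identifiers (UMIs) per 1000000 UMIs of the same cells (CPM). Cell classes were named from marker genes of 19 types and are called "like" that type. The filters left 2903 null-labelled cells (33570111 UMIs, median 9321 per cell) and 8595 control-labelled cells (59003767 UMIs, median 4812). The libraries shared 6 barcodes among these cells. At least 90% of the cells came from a single library in 150 of 158 sub-clusters, and in each of the 6 classes compared below the largest sub-cluster differed between the libraries. Itgb3 gave 248 UMIs (7.39 CPM) in the null-labelled and 1391 UMIs (23.6 CPM) in the control-labelled library. Apoe gave 62.0 and 98.4 CPM, although both labels are Apoe(-/-). A 3′ tag can come from a transcript that carries a deletion elsewhere, so these counts do not check the labels.

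The libraries also differed beyond the sterol genes. The 12 interferon response genes summed to 9780 CPM (null-labelled) and 940 CPM (control-labelled), and all 12 were higher in the null-labelled library, by up to 302-fold for Cxcl10. The 18 proliferation genes summed to 2260 and 3820 CPM, and all 18 were lower in the null-labelled library. Globin genes took 18.9% and 13.9% of UMIs. The part of these differences in the results below was not tested, except where values within dividing cells or within globin bins are given.

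The promoters of Hmgcs1 and Insig1 are printed because these genes stood on opposite sides in the comparison of the libraries: Hmgcs1 was lower and Insig1 was higher in the null-labelled library over all cells. The sequences are from RefSeq on GRCm38.p6 (mm10), on the plus strand, 5′ to 3′. Hmgcs1 is shown at chr13:119690101-119690350 and Insig1 at chr5:28071162-28071362, in both cases ending before the first base of any annotated transcript. Capitals mark matches to TCACNNCAC, a looser form of the sterol regulatory element, and to the CCAAT box, which reads ATTGG where it lies on the minus strand.
Hmgcs1: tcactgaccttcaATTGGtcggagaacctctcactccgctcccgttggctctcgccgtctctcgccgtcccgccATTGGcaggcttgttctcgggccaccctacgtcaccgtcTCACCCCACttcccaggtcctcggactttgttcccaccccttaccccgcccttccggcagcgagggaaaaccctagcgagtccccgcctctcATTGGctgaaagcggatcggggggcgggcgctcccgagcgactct
Insig1: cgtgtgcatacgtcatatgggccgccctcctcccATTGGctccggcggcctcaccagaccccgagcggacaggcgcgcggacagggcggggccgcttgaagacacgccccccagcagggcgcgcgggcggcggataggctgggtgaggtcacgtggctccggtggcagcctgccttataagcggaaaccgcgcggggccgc
The Hmgcs1 stretch holds TCACCCCAC, 137 to 129 bases before its RefSeq start, and 3 CCAAT boxes. The Insig1 stretch holds 1 CCAAT box and no match to the element in this window.

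RefSeq promoter windows of 250 bases before to 50 bases after the start were matched for 5 of the 8 genes, which are Cyp51, Insig1, Msmo1, Idi1 and Hmgcs1. Both strands were searched. TCACNCCAC, the stricter form of the element, was in 1 of the 5 windows (Hmgcs1) and in 1.24% of all 32851 windows. The looser TCACNNCAC, which contains the stricter form and was added after the first search, was in 2 of 5 (Hmgcs1 and Msmo1) and in 3.77% of all windows. CCAAT was in 5 of 5 and in 37.4% of all windows, and the GC box GGGCGG was in 5 of 5 and in 35.7%. A match is a description of letters and not of a bound site.

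The early enzymes act before the pathway is committed to sterols. Hmgcs1 (ENSMUSG00000093930, chr13:119690379-119708260, plus strand, mm10) joins acetyl groups to form HMG-CoA. Idi1 (ENSMUSG00000058258, chr13:8885501-8892451, plus strand) interconverts the isopentenyl and dimethylallyl diphosphates, and Fdps (ENSMUSG00000059743, chr3:89093588-89101959, minus strand) joins them into farnesyl diphosphate. From there Fdft1 (ENSMUSG00000021273, chr14:63145150-63179578, minus strand), squalene synthase, takes the first step that leads only to sterols. Sqle (ENSMUSG00000022351, chr15:59315077-59331192, plus strand) oxidises squalene. Cyp51 (ENSMUSG00000001467, chr5:4081145-4104746, minus strand) and Msmo1 (ENSMUSG00000031604, chr8:64718139-64733792, minus strand) remove methyl groups from lanosterol and its products. Insig1 (ENSMUSG00000045294, chr5:28071363-28078662, plus strand) encodes the regulator described above, is itself an SREBP target and makes no sterol.

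Some counts can be shared with other genes. Fdps shares 7512 bases with Gm43738 on the same strand, and 5 genes including that one have a transcript with at least 95% identity to it over 200 bases. Fdft1 overlaps the protease gene Ctsb by 774 bases and Cyp51 overlaps Akap9 by 166 bases, both on opposite strands. Idi1 has 3 such near-identical genes, none of them in the matrix, and overlaps one of them, Gm48574, by 323 bases on the opposite strand. Hmgcs1 overlaps the antisense gene Gm48342 over 6190 bases. The labels do not say how reads over 2 genes were assigned, so levels of these genes are uncertain to that extent. No overlap or near-identical transcript was found for Sqle, Insig1 or Msmo1.

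Plasmacytoid dendritic cell-like cells of the control-labelled library had the highest summed level of the 8 genes. Their 60 cells gave 164 UMIs, or 531 CPM (452 to 618), against 98.1 CPM (62.2 to 147) from 23 UMIs in 22 such cells of the null-labelled library. These cells are known for producing large amounts of type I interferon. Next in order were granulocyte-monocyte progenitor-like cells with 178 CPM (169 to 188) and monocyte-like cells with 169 CPM (158 to 180), whose intervals overlap, and then haematopoietic stem and progenitor cell-like (HSPC-like) cells with 139 CPM (112 to 169), all in the control-labelled library. Macrophage-like cells had 109 CPM (77.2 to 148), cells like immature neutrophils 108 CPM (102 to 114), cells like B precursors 107 CPM (98.6 to 116) and basophil or mast cell-like cells 100.1 CPM (62.7 to 152), and these 4 do not differ beyond counting error. As a mean over cells of each cell's CPM, the macrophage-like cells had 261, so their place depends on how cells are weighted. Globin genes took 34.1% of their UMIs, and erythroid was the second-best name of their sub-cluster. The part of erythroid RNA in their level was not tested. Erythroid-like and mature B-like cells lay at 84.7 CPM (80.6 to 88.96) and 84.5 CPM (72.0 to 98.6), mature neutrophil-like cells at 67.1 CPM (59.0 to 76.1), T-like cells at 65.1 CPM (48.3 to 85.8) and NK-like cells at 61.2 CPM (38.3 to 92.6). The last 3 have overlapping intervals.

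In the null-labelled library the order began with the 33 granulocyte-monocyte progenitor-like cells at 149 CPM (130 to 170). HSPC-like cells had 111 CPM (96.6 to 128), plasmacytoid dendritic cell-like cells 98.1 CPM and monocyte-like cells 95.6 CPM (85.1 to 107), and these 3 overlap. Of the 68 HSPC-like cells, 45 were in 1 sub-cluster with a single HSPC marker, Cd34, among its top genes. HSPC markers summed to 823 CPM here and 1631 CPM in the control-labelled class. With this library clustered alone, stromal was the second-best name of an HSPC-like sub-cluster of 48 cells. The HSPC-like name is therefore uncertain for many of these cells. B precursor-like cells had 87.1 CPM (75.1 to 101) and mature B-like cells 68.8 CPM (58.3 to 80.7). Basophil or mast cell-like (79.6 CPM), NK-like (53.9 CPM) and plasma cell-like cells (51.8 CPM) gave 30 UMIs or fewer each. The lowest classes with 100 or more cells were T-like at 48.9 CPM (36.6 to 64.0), immature neutrophil-like at 46.0 CPM (41.2 to 51.3) and erythroid-like at 38.3 CPM (34.7 to 42.1).

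**Figure D1:**
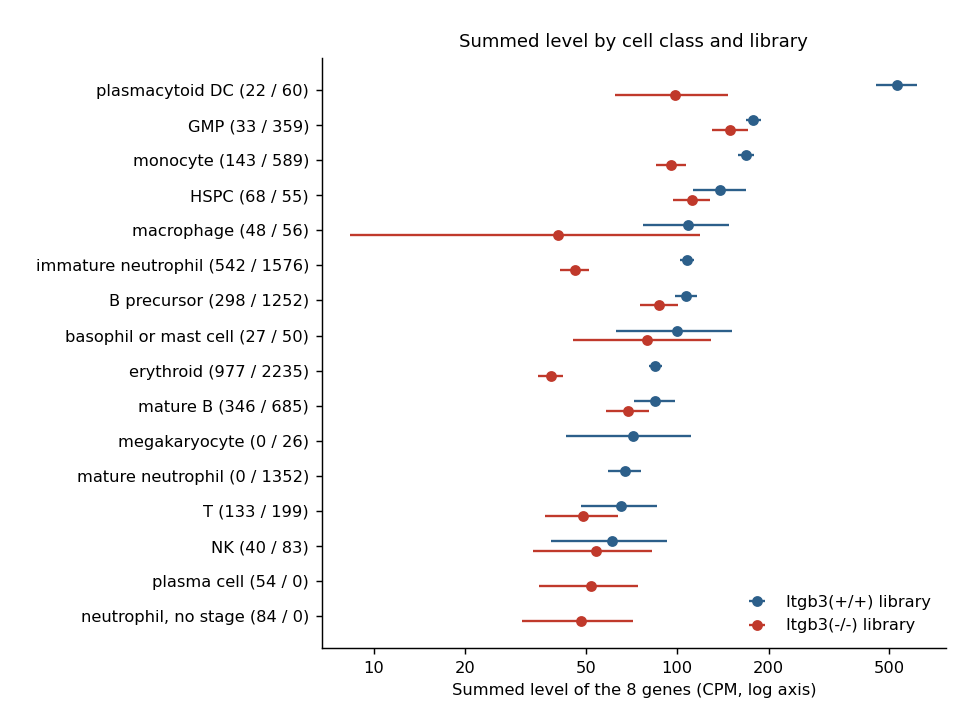
Summed level of the 8 genes per cell class, as CPM on a log axis, with exact Poisson 95% intervals; red points are the null-labelled Itgb3(-/-) library, blue points the control-labelled Itgb3(+/+) library, and the numbers in brackets are cells (null-labelled / control-labelled). GMP is granulocyte-monocyte progenitor and DC dendritic cell. The point at 531 CPM for control-labelled plasmacytoid dendritic cell-like cells stands apart, and in the 12 named classes with 20 or more cells in both libraries the red point lies to the left of the blue one.

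The high level in plasmacytoid dendritic cell-like cells was found in both of their control-labelled sub-clusters. They had 503 CPM in 34 cells and 569 CPM in 26 cells, and 26 and 23 of these cells had at least 1 UMI of the 8 genes. When each cell was thinned to 1000 UMIs, 22 of 60 cells (36.7%, Clopper-Pearson interval 24.6% to 50.1%) had such a UMI, against 4 of 22 (18.2%, 5.19% to 40.3%) in the null-labelled library. Unthinned, the shares were 81.7% and 68.2%, at medians of 4972 and 10192 UMIs per cell. No class should lack these genes altogether, so the share of cells that free RNA gives could not be measured. The lowest thinned share in a class of 100 or more cells was 2.51%, in null-labelled erythroid-like cells at a median of 10009 UMIs. With a limit of 5% mitochondrial UMIs in place of 10%, only 5 and 10 plasmacytoid dendritic cell-like cells are left in the control-labelled and null-labelled library, and the log2 ratio of null-labelled to control-labelled was -2.42.

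All but 1 of the 8 genes contributed to that level. In control-labelled plasmacytoid dendritic cell-like cells Fdps had 123 CPM, Msmo1 104 CPM, Hmgcs1 77.6 CPM, Idi1 74.4 CPM, Insig1 64.7 CPM, Sqle 42.1 CPM and Cyp51 35.6 CPM, while Fdft1 had 9.71 CPM from 3 UMIs. Each of the first 7 was at its highest there among the classes with 50 or more cells. In the null-labelled cells Msmo1 had 8.53 CPM from 2 UMIs, Hmgcs1 12.8 CPM, Fdps and Insig1 21.3 CPM each, and Idi1 25.6 CPM. Sqle gave 0 UMIs there, which allows up to 12.8 CPM. The summed level was 5.41-fold lower (3.48 to 8.77) in the null-labelled cells, while the median gene of these cells was at a log2 ratio of 0.09 among 2980 genes with 30 UMIs or more and a mean of 20 CPM. Proliferation genes summed to 330.0 CPM in the control-labelled and 405 CPM in the null-labelled cells, and interferon response genes summed to 492 CPM in the control-labelled and 5918 CPM in the null-labelled cells. The part of the interferon difference was not tested.

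Fdps gave the most UMIs of the 8 genes in the progenitor-like classes of both libraries and in control-labelled monocyte-like cells. It reached 105 CPM in control-labelled granulocyte-monocyte progenitor-like cells, where it made up 58.8% of all UMIs of the 8 genes, and 66.7 CPM (44.7%) in the null-labelled ones. Monocyte-like cells had 64.2 CPM in the control-labelled library and 21.7 CPM in the null-labelled one, where Insig1 gave more UMIs (81 against 68). In control-labelled mature neutrophil-like cells Fdps had 2.75 CPM, from 10 UMIs in 1352 cells.

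Null-labelled mature neutrophil-like cells depended on the clustering. With both libraries clustered together no null-labelled cell had that name, and 84 neutrophil-like cells could not be given a stage. With each library clustered alone, a setting whose neutrophil levels were added after the data were seen, 162 null-labelled cells (5.58% of the library) were named mature neutrophil-like. Their summed level was 44.2 CPM (32.5 to 58.8), with Fdps at 1.88 CPM from 2 UMIs and Msmo1 at 15.1 CPM from 16 UMIs, beside 67.3 CPM (59.2 to 76.2) in 1365 control-labelled cells, with Msmo1 at 41.4 CPM.

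Msmo1 gave the most UMIs of the 8 genes in control-labelled immature and mature neutrophil-like cells, but in null-labelled immature neutrophil-like cells it came after Fdps and Hmgcs1. Control-labelled granulocyte-monocyte progenitor-like cells had 9.04 CPM, immature neutrophil-like cells 31.2 CPM and mature neutrophil-like cells 41.8 CPM, where Msmo1 gave 62.3% of the UMIs of the 8 genes. As a mean over cells of each cell's CPM, immature and mature cells had 40.3 and 35.1, so their order depends on how cells are weighted. The null-labelled library had 8.28 CPM in immature neutrophil-like cells and 22.1 CPM, from 11 UMIs, in the 84 cells without a stage. The immature cells of the 2 libraries differed by more than counting error.

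Hmgcs1 was less tied to progenitors. Among the control-labelled classes its level was 77.6 CPM in plasmacytoid dendritic cell-like cells, 36.4 CPM in 50 basophil or mast cell-like cells, 26.0 CPM in T-like cells, 22.9 CPM in HSPC-like cells, 20.9 CPM in mature B-like cells and 20.5 CPM in monocyte-like cells. Among the classes found in both libraries it was lowest in erythroid-like cells, at 3.22 CPM in the control-labelled and 1.19 CPM in the null-labelled library. In T-like cells of the control-labelled library Hmgcs1 gave 40.0% of the UMIs of the 8 genes, the largest share it had in any class.

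Idi1 and Sqle were the pair most alike across classes. Over the 22 class-by-library profiles with 50 or more cells, their log2(CPM + 10) values had a Pearson r of 0.916, the highest of the 28 pairs, and the pairs ranged down to -0.08 with a median of 0.45. Both were high in control-labelled HSPC-like cells (Idi1 25.7 CPM, Sqle 17.1 CPM) and erythroid-like cells (18.7 and 12.7 CPM) and low in control-labelled T-like cells (1 UMI each). Profiles share 2 libraries and their depth, so the correlations are descriptions. Without the control-labelled plasmacytoid dendritic cell-like profile the pairs ranged from -0.40 to 0.83 with a median of 0.20, a setting chosen after the data were seen.

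Fdft1 set itself apart from the other enzymes. Its lowest pair correlations were with Hmgcs1 (-0.08) and Msmo1 (-0.08), and it was not high in plasmacytoid dendritic cell-like cells. Its highest levels were 15.2 CPM in null-labelled and 14.7 CPM in control-labelled erythroid-like cells, where it gave 39.8% and 17.4% of the UMIs of the 8 genes. Cyp51 was highest after the plasmacytoid dendritic cell-like cells in the basophil or mast cell-like cells (22.7 CPM control-labelled, 34.8 CPM from 7 UMIs null-labelled) and in control-labelled HSPC-like cells (19.997 CPM).

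**Figure D2:**
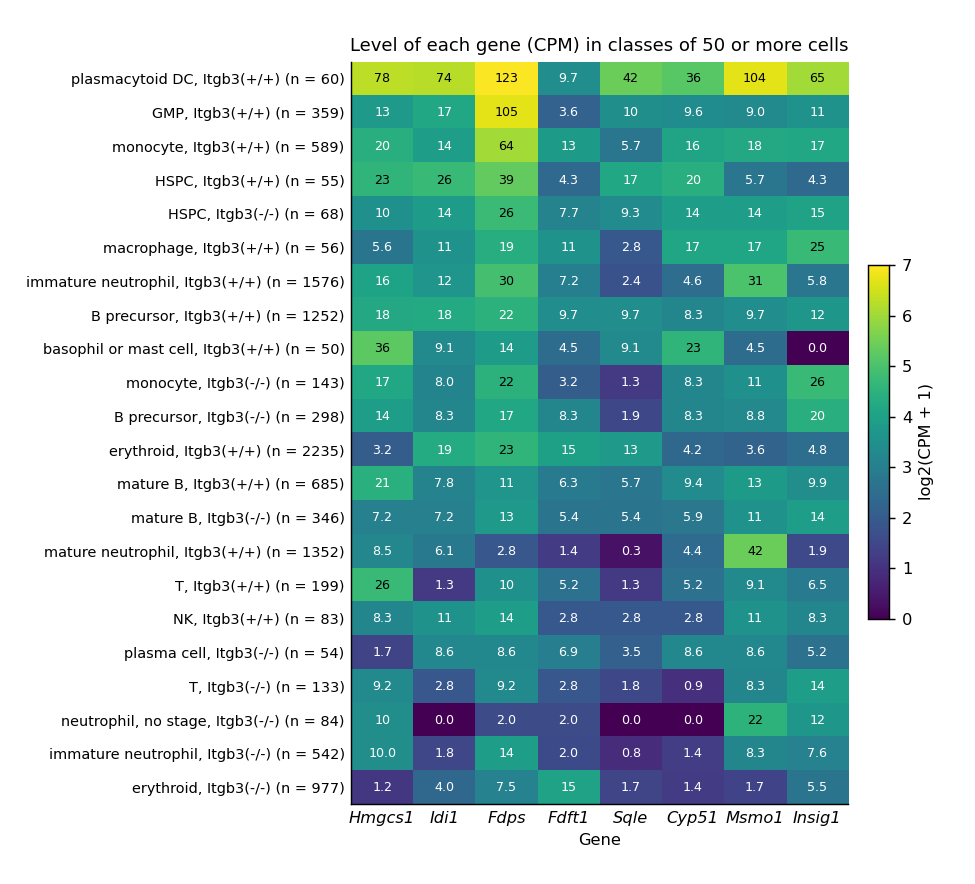
Level of each of the 8 genes (columns, printed as CPM and coloured by log2(CPM + 1)) in the 22 profiles of a class in 1 library with 50 or more cells (rows, ordered by summed level). Fdps leads in GMP-like cells at 105 CPM, Msmo1 in mature neutrophil-like cells at 41.8 CPM, and Fdft1 is the brightest gene of the null-labelled erythroid-like row.

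The comparison of the libraries asks how marrow cells labelled Itgb3(-/-) and Itgb3(+/+) differ on the Apoe(-/-) background. Summed over all cells, the 8 genes gave 65.1 CPM (null-labelled) and 113 CPM (control-labelled), which was 1.74-fold lower (1.65 to 1.82). The median gene was at a log2 ratio of -0.18, so the 8 genes lay 0.61 below it on the log2 scale. The classes make up different shares of the libraries (erythroid-like cells were 33.7% and 26.0% of cells, and mature neutrophil-like cells 0 and 15.7%, or 5.58% and 15.9% with each library clustered alone), so the comparison was repeated within classes. There were 6 classes with 100 or more cells in both libraries, and the summed level was lower in the null-labelled library in 6 of 6, with an interval below 1 in 4. It was also lower in 6 of 6 further classes with 20 to 99 cells in the smaller library. Among these, the intervals of the levels were apart in plasmacytoid dendritic cell-like cells and overlapped in the others. Overlap of levels is a stricter rule, and the interval of the ratio was also below 1 in granulocyte-monocyte progenitor-like cells, as given below. Null-labelled and control-labelled counts were 21 and 22 UMIs in NK-like, 16 and 22 in basophil or mast cell-like, and 3 and 39 in macrophage-like cells.

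The difference was largest in immature neutrophil-like cells among the 6 classes, in counts of 1426 UMIs in 1576 control-labelled cells and 328 UMIs in 542 null-labelled cells. The levels were 108 and 46.0 CPM, which was 2.34-fold lower (2.08 to 2.65), while the median gene was at -0.07 on the log2 scale. Sub-clusters with 30 or more cells did not overlap between the libraries, with 37.7 to 55.5 CPM in 6 null-labelled and 61.4 to 142 CPM in 13 control-labelled sub-clusters. In each of the other classes compared these ranges overlapped. Monocyte-like cells, for example, had 63.8 to 115 CPM (null-labelled) and 78.2 to 318 CPM (control-labelled). How many of all genes separate in this way is not given here. Sub-clusters are not replicates, and most hold cells of a single library. The largest gaps were in Idi1 (1.82 against 11.5 CPM) and Msmo1 (8.28 against 31.2 CPM), followed by Fdft1 (1.97 against 7.19 CPM), Cyp51 (1.40 against 4.62 CPM), Sqle (0.842 against 2.42 CPM) and Fdps (14.2 against 29.5 CPM). Hmgcs1 had 9.97 and 15.7 CPM, and Insig1 7.58 and 5.75 CPM with a ratio of 1.32 (0.91 to 1.89).

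Monocyte-like cells had 95.6 CPM in 143 null-labelled and 169 CPM in 589 control-labelled cells, 1.76-fold lower (1.55 to 2.02), with the median gene at -0.11. Fdps made most of that gap, with 21.7 against 64.2 CPM, a ratio of 0.337 (0.257 to 0.438). Fdft1 had 3.19 against 13.2 CPM and Sqle 1.27 against 5.73 CPM. Hmgcs1 differed by less than counting error, at 16.9 and 20.5 CPM (ratio 0.825, 0.585 to 1.15). Insig1 was higher in the null-labelled cells, at 25.8 against 17.2 CPM (ratio 1.502, 1.11 to 2.04).

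Erythroid-like cells had 38.3 CPM in 977 null-labelled and 84.7 CPM in 2235 control-labelled cells, 2.21-fold lower (1.98 to 2.47). Most genes were lower there, with the median gene at -0.81, and globin genes took 56.0% of UMIs in the null-labelled and 37.1% in the control-labelled cells. Relative to the median gene the 8 genes were 0.33 lower on the log2 scale. Sqle stood out with 1.74 against 12.7 CPM (ratio 0.138, 0.082 to 0.220), as did Idi1 with 4.04 against 18.7 CPM (0.216, 0.154 to 0.296). Fdft1 (15.2 and 14.7 CPM, ratio 1.04, 0.85 to 1.26) and Insig1 (5.51 and 4.83 CPM, ratio 1.14, 0.81 to 1.60) lay above the median gene.

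The lymphoid classes differed less. B precursor-like cells had 87.1 and 107 CPM, 1.23-fold lower (1.04 to 1.46) in the null-labelled library, with Sqle at 1.85 against 9.71 CPM and Idi1 at 8.34 against 18.3 CPM, while Hmgcs1, Fdft1, Fdps, Cyp51 and Msmo1 had intervals that span a ratio of 1. Mature B-like cells had 68.8 and 84.5 CPM, a ratio of 0.815 (0.649 to 1.02), and T-like cells 48.9 and 65.1 CPM, a ratio of 0.751 (0.501 to 1.13), so neither difference is larger than counting error. At a 5% mitochondrial limit both turned, to log2 ratios of 0.70 and 0.06. Hmgcs1 was the exception in both, at 7.25 against 20.9 CPM in mature B-like cells (ratio 0.347, 0.182 to 0.634) and 9.23 against 26.0 CPM in T-like cells (0.354, 0.148 to 0.793). The smaller progenitor classes had ratios of 0.837 (0.722 to 0.968) in granulocyte-monocyte progenitor-like cells and 0.804 (0.628 to 1.03) in HSPC-like cells. The name of many null-labelled HSPC-like cells is uncertain, as given above.

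**Figure D3:**
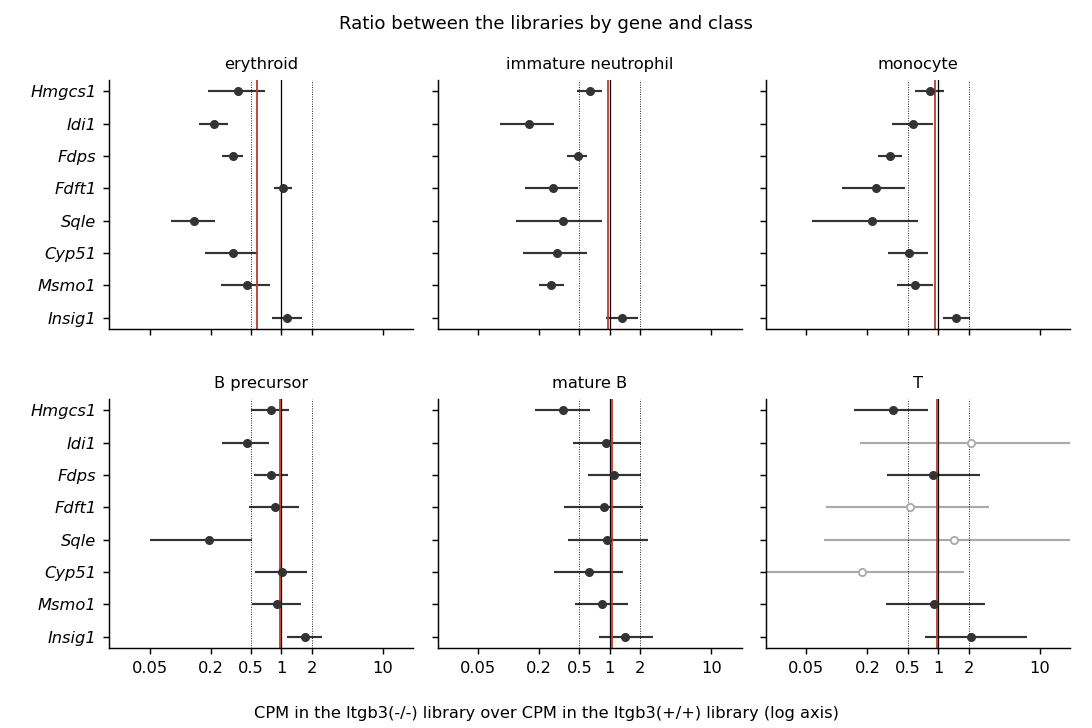
Ratio of the CPM in the null-labelled Itgb3(-/-) library to that in the control-labelled Itgb3(+/+) library for each of the 8 genes in the 6 classes compared, on a log axis, with exact 95% intervals for counting error (cut at the axis limits). Open grey points have under 10 UMIs over both libraries, dotted lines mark 2-fold, and the red line is the median gene of the class. Insig1 lies to the right of 1 in every panel, while Sqle and Idi1 lie far to the left in erythroid-like cells at 0.138 and 0.216.

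By the size rule of 2-fold among genes with 30 UMIs over both libraries and a mean of 20 CPM, few of the 8 genes were abundant enough to be counted. Over all cells only Fdps was, at 17.7 against 37.0 CPM, and it was 2-fold lower, as were 10.2% of all 5008 such genes, while 6.31% were 2-fold higher. In immature neutrophil-like cells 1 of 1 member was lower (all genes 10.5% lower and 8.73% higher), and this was Fdps again. In monocyte-like cells 1 of 2 was lower, also Fdps (all genes 14.3% lower and 10.6% higher), and Insig1 was not 2-fold higher. No member reached the minimum in B precursor-like cells (all genes 8.18% lower and 6.57% higher), T-like cells (10.9% and 8.73%), erythroid-like cells (42.1% and 6.44%) or mature B-like cells (11.6% and 10.7%).

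With a minimum of 10 UMIs and none in CPM all 8 genes could be counted outside T-like cells. Over all cells 4 of 8 were 2-fold lower and 0 higher, against 19.6% and 10.2% of all genes. Sqle, Idi1, Fdps and Msmo1 were the 4. In immature neutrophil-like cells 6 of 8 were lower and 0 higher (all genes 19.2% and 10.9%), all but Hmgcs1 and Insig1. In monocyte-like cells 3 of 8 were lower and 0 higher (19.9% and 12.9%), which were Sqle, Fdft1 and Fdps. In erythroid-like cells 6 of 8 were lower and 0 higher, where 48.1% of all genes were lower and 6.54% higher. The lymphoid classes lay near the share of all genes, with 2 of 8 lower and 0 higher in B precursor-like cells (15.6% and 8.20%) and 1 of 8 lower and 0 higher in mature B-like cells (18.2% and 11.7%). In T-like cells 1 of 4 was lower, Hmgcs1, and 1 of 4 higher, Insig1 with 15 and 5 UMIs (14.7% and 11.1%). The median log2 ratio of the 8 genes was -1.62 in immature neutrophil-like cells and -0.89 in monocyte-like cells, beside -0.16 and -0.17 for all genes.

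Insig1 was the member with a higher level in the null-labelled library. Over all cells it had 11.6 CPM (null-labelled) and 8.12 CPM (control-labelled), a ratio of 1.43 (1.25 to 1.64). Its ratio was above 1 in 6 of 6 classes, from 1.14 in erythroid-like to 2.13 in T-like cells, with an interval above 1 in 2 of them, B precursor-like and monocyte-like. As a share of the UMIs of the 8 genes, which does not depend on how the libraries are scaled, Insig1 was 17.8% (16.2% to 19.5%) in the null-labelled and 7.18% (6.57% to 7.82%) in the control-labelled library.

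That share was higher in the null-labelled library in 10 of 10 classes with 20 or more UMIs of the 8 genes in each library. A share also rises where the other members fall, so it does not by itself show a higher Insig1 level. The shares were 27.0% and 10.2% in monocyte-like cells, 16.5% and 5.33% in immature neutrophil-like cells, 14.4% and 5.70% in erythroid-like cells, 23.4% and 11.3% in B precursor-like cells, 11.98% and 6.25% in granulocyte-monocyte progenitor-like cells, and 13.8% and 3.09% in HSPC-like cells. In these 6 classes the Clopper-Pearson intervals did not overlap. Sqle had the opposite order, with a lower share in the null-labelled library in 8 of 10 classes and intervals apart in 2. Fdps also had a lower share in 7 of 10, with intervals apart in 3. Msmo1 had a higher share in 8 of 10, as Insig1 did in all 10, but in none of the 8 were the intervals apart. Erythroid-like cells, among the 8, had nearly equal Msmo1 shares of 4.32% (null-labelled) and 4.31% (control-labelled). The Msmo1 intervals were apart only where its share was lower in the null-labelled library. This was so in immature neutrophil-like cells (17.99% null-labelled and 28.9% control-labelled) and over all cells. In plasmacytoid dendritic cell-like cells, where Insig1 had 64.7 and 21.3 CPM, its level was lower in the null-labelled library although its share was higher, 21.7% and 12.2%.

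Dividing cells were set apart within a class as cells with 3 or more UMIs of the 18 proliferation genes after thinning to 2000 UMIs, which is a range on a score and not a cell type. Erythroid-like cells showed the largest gap. Summed levels were 77.1 CPM in 353 dividing and 3.98 CPM in 587 other cells of the null-labelled library, and 113 CPM in 1215 dividing and 6.26 CPM in 910 other cells of the control-labelled one. These ratios of 19.4 and 18.1 are on totals that include globin. Without globin, mitochondrial, ribosomal and immunoglobulin genes in the totals, the levels were 153 against 23.1 and 200.3 against 35.6, ratios of 6.63 and 5.63. All 8 genes were higher in the dividing erythroid-like cells of both libraries, and 72 null-labelled and 117 control-labelled cells lay at the cut or 1 UMI below it. Globin UMIs were kept in the thinning, so a globin-rich cell has fewer other UMIs with which to reach the cut. With a cut of 2 or 5 UMIs in place of 3, the control-labelled ratio of 18.1 became 33.5 or 10.6. Immature neutrophil-like cells had 47.7 CPM in dividing and 45.2 CPM in other cells of the null-labelled library (ratio 1.05, 0.835 to 1.33), and 100.4 and 116 CPM in the control-labelled one (0.869, 0.781 to 0.965).

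Monocyte-like cells had 198 CPM in dividing and 102 CPM in other cells of the control-labelled library, and 109 and 81.0 CPM in the null-labelled one. B precursor-like cells had 129 and 74.7 CPM in the control-labelled library, but 83.2 and 91.5 CPM in the null-labelled one, where the interval of the ratio spans 1. The share of dividing cells among those with 2000 UMIs was lower in the null-labelled library in erythroid-like (37.6% and 57.2%), monocyte-like (33.6% and 50.3%), B precursor-like (26.7% and 37.8%) and immature neutrophil-like cells (25.7% and 30.9%). In B precursor-like cells this minimum left out 6 of 298 null-labelled but 416 of 1252 control-labelled cells. The dividing cells numbered 78 and 316, so the difference in share in that class can come from the minimum. In erythroid-like cells globin took 56.0% of UMIs in the null-labelled and 37.1% in the control-labelled library. Its part in the share of dividing cells was not tested.

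Within dividing cells the difference between the libraries was smaller in erythroid-like cells than over the class, 1.47-fold lower (1.32 to 1.65). It remained in dividing immature neutrophil-like (2.11-fold, 1.73 to 2.58), monocyte-like (1.82-fold, 1.54 to 2.15) and B precursor-like cells (1.55-fold, 1.23 to 1.98). Among the other cells it was 2.56-fold (2.19 to 2.996) in immature neutrophil-like cells, while the ratios were 0.793 (0.624 to 1.00) in monocyte-like, 0.635 (0.354 to 1.13) in erythroid-like and 1.23 (0.93 to 1.62) in B precursor-like cells, all of which span 1.

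Erythroid-like cells were also divided by the share of globin in their UMIs, which increases as these cells mature, and levels were then taken per 1000000 UMIs without globin (globin-free CPM). Cells under 20% globin had 82.8 globin-free CPM in the null-labelled (111 cells) and 149 in the control-labelled library (459 cells), 1.80-fold lower (1.54 to 2.12). Cells of 20% to 60% globin had 134 and 137 globin-free CPM, and cells over 60% had 25.2 and 28.9, with ratios of 0.977 (0.823 to 1.16) and 0.871 (0.5001 to 1.501). The summed gap lay in the cells with the least globin, and 22 and 59 cells of this bin were within 5 percentage points of its bound.

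The genes followed different courses over these bins. Sqle in the control-labelled library had 25.5, 13.5 and 0.876 globin-free CPM from the lowest to the highest bin, and Idi1 had 35.4, 25.4 and 3.50. The null-labelled cells had 6.79 and 2.58 for Sqle and 13.1 and 9.66 for Idi1 in the lower 2 bins, and in the highest bin 0 UMIs for both, which allows up to 2.90 globin-free CPM. Fdps in the lowest bin had 18.1 null-labelled against 45.2 control-labelled, and 22.5 against 23.7 in the middle bin. Fdft1 peaked in the middle bin, with 16.3, 80.5 and 4.84 in the null-labelled and 14.5, 52.5 and 7.01 in the control-labelled library. Insig1 was nearly level in the null-labelled cells, with 11.8, 13.5 and 12.6 globin-free CPM, against 7.59, 9.82 and 2.63 in the control-labelled cells. So the equal sums of the middle bin held more Fdft1 and less Sqle and Idi1 in the null-labelled cells.

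**Figure D4:**
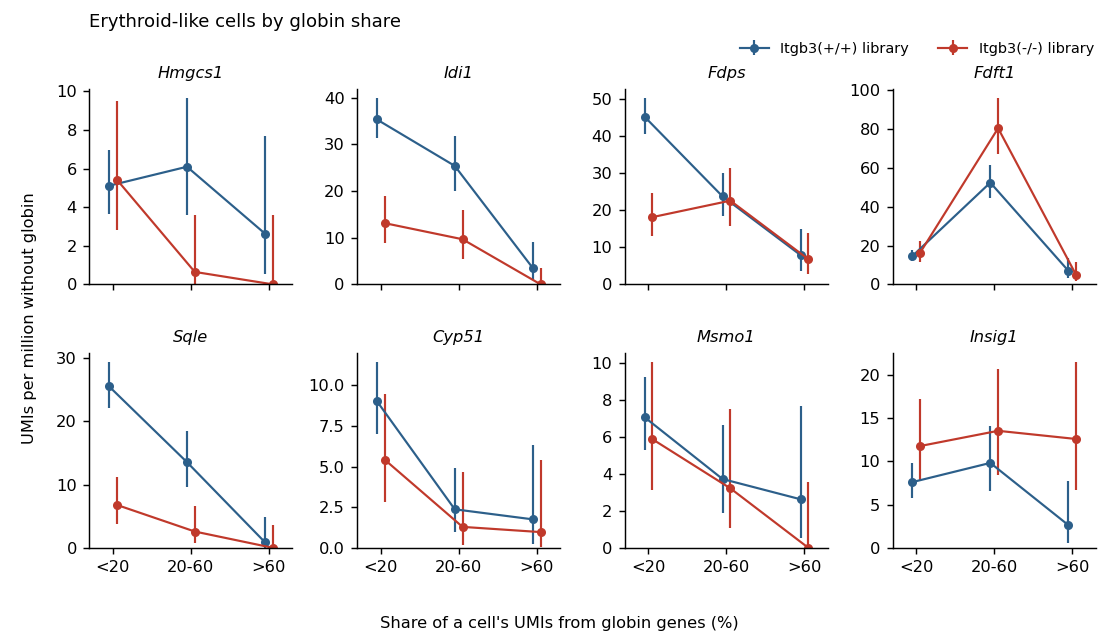
Globin-free CPM (vertical axis, UMIs for every 1000000 without globin) of each gene in erythroid-like cells with under 20%, 20% to 60% and over 60% of their UMIs from globin genes, in the null-labelled Itgb3(-/-) library (red) and the control-labelled Itgb3(+/+) library (blue), with exact Poisson 95% intervals; each panel has its own vertical axis from 0. Fdft1 peaks in the middle bin at 80.5 and 52.5, Sqle and Idi1 are lower in the null-labelled cells of the lower 2 bins, and Insig1 stays at 11.8 to 13.5 in the null-labelled cells.

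The 14 other sterol synthesis enzymes were all lower in the null-labelled library over all cells, 5 of 14 by 2-fold with the minimum of 10 UMIs (all genes 19.6%), at a median log2 ratio of -0.59 beside -0.23 for all genes. Acat2, which condenses acetyl-CoA, had 2.53 against 7.97 CPM (ratio 0.318, 0.249 to 0.401), and Mvk, Mvd and Dhcr7 were also among the 5. Pmvk, the enzyme between Mvk and Mvd, was the highest of the list at 22.8 and 23.8 CPM (ratio 0.959). Within classes the direction was less uniform. At that minimum a ratio below 1 was found for 13 of 13 in erythroid-like, 11 of 12 in immature neutrophil-like and 10 of 14 in monocyte-like cells. It was found for 9 of 12 in mature B-like, 9 of 10 in T-like and 8 of 13 in B precursor-like cells. In monocyte-like cells 6 of 14 were 2-fold lower and 2, Pmvk among them, 2-fold higher (all genes 19.9% and 12.9%).

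Of the 8 genes of LDL uptake and lysosomal sterol release with 10 UMIs, 2 of 8 were 2-fold lower over all cells, near the 19.6% of all genes. They were Lipa, the lysosomal lipase that frees cholesterol from LDL esters (ratio 0.449), and Stard4, a sterol carrier (0.467). Npc2, which hands cholesterol out of the lysosome, was the highest at 306 against 205 CPM (1.49).

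Of the 6 genes of SREBP control, 0 of 6 were 2-fold different over all cells by the same size rule (all genes 19.6% lower and 10.2% higher). Srebf2, the gene of SREBP2 itself, had 27.0 and 28.5 CPM (ratio 0.946, 0.871 to 1.03) and 107 and 110 CPM in plasmacytoid dendritic cell-like cells. Insig2 was the lowest of the list (7.72 against 10.7 CPM, ratio 0.720, 0.621 to 0.834), so the 2 INSIG genes differed in opposite directions. Mbtps2, one of the proteases that release SREBP, was the highest (10.3 against 6.00 CPM, 1.71, 1.47 to 1.99).

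Neighbouring pathways did not share one direction. Of 9 SREBP1 targets of fatty acid synthesis with 10 UMIs, 0 of 9 were 2-fold different over all cells (all genes 19.6% lower and 10.2% higher). A ratio below 1 was found for 8 of 9, at a median log2 ratio of -0.28 beside -0.23 for all genes. Acss2 was lowest (0.589) and Scd1, a desaturase, highest (1.47). Over all cells Nr1h3, which encodes the sterol sensor LXR alpha, was lowest of the 6 genes of efflux and esterification (0.370). Abca1, an LXR target that exports cholesterol, was highest (1.85). Within classes, at the minimum of 10 UMIs, Nr1h3 was 2-fold lower in erythroid-like but 2-fold higher in monocyte-like cells. Abca1 was 5.01-fold (2.35 to 11.6) and 13.2-fold (5.58 to 37.8) higher in null-labelled immature neutrophil-like and monocyte-like cells, from 27 against 10 and 43 against 6 UMIs, and its ratio was also above 1 in B precursor-like (2.92) and T-like cells (2.94) but below 1 in mature B-like (0.886) and erythroid-like cells (0.602). Among the oxysterol enzymes Cyp27a1 had 12 and 165 UMIs (0.128), while Ch25h had 10 and 1 UMIs. The isoprenoid branches split, with Dhdds of dolichol synthesis at 0.318 and Ggps1, which makes geranylgeranyl diphosphate, at 2.24, from 35.2 against 15.7 CPM.

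Likeness to the summed level of the 8 genes was measured over the 22 profiles for 8690 other genes with 500 or more UMIs, as Pearson's r of log2(CPM + 10). The first 8 were Rufy1 (0.893), Khk (0.864), Chdh (0.852), Cnot8 (0.838), Gria3 (0.834), Glt8d1 (0.833), Magt1 (0.829) and Ccnd1 (0.826). Srebf2 was rank 1832 (0.447). None of the first 8 was among the first 8 by Spearman's rho, nor without the control-labelled plasmacytoid dendritic cell-like profile, so which 8 genes come first depends on the measure and on that profile. Without it Magt1 had an r of 0.844 (rank 11) and Rufy1 of 0.827 (rank 24), while Ccnd1 had 0.612 (rank 844). The summed level had an r of 0.225 with the proliferation genes over all 22 profiles, 0.333 over the 9 null-labelled and 0.0566 over the 13 control-labelled ones.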

How the data were processed

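The deposited matrices hold whole-number counts of UMIs per gene and cell barcode, which the authors made with Cell Ranger 3.0 and the build mm10, per the submitters' processing notes, which also name Seurat. The file headers give software version 3.1.0. No normalization was applied before deposit. Each group is 1 library, with the null-labelled matrix holding 4281 barcodes and the control-labelled matrix 12764.

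Barcodes were kept with at least 200 genes and at most 10% mitochondrial UMIs, which removed 1307 and 3479, and the highest Scrublet doublet scores were removed at 0.8% per 1000 cells (71 and 690). Both libraries were clustered together (scanpy 1.11.5, 2000 variable genes without the 8 genes and the other sterol lists, 30 components, 15 neighbours, Leiden resolution 1, then 0.5 within clusters). This gave 35 clusters and 158 sub-clusters, named from markers of 19 classes with a score set after the data were seen: 16 names were used, a sub-cluster needed 3 detected markers, and 78 and 18 cells stayed unnamed. Cell types of the study itself were not used, so a difference from the study may come from rebuilt names. The largest sub-cluster of each class differed between the libraries except for megakaryocyte-like cells.

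UMIs were summed per class and library and given as CPM with exact Poisson intervals, and ratios with an exact interval from the split of UMIs. A tag is counted once per transcript at its 3′ end, so no length scaling was made. Ratios were taken in classes of 100 or more cells in both libraries, and for description in those of 20 to 99. The interval code was tested on simulated data. Alternatives were TMM factors (edgeR 4.0.16), totals without globin, mitochondrial, ribosomal and immunoglobulin genes, a 5% mitochondrial limit, no doublet removal, clustering each library alone, means over cells, other minimums, other cuts and Spearman's rho. The members and gene lists were chosen with earlier results of these data known. Named genes are the 8 members, Srebf2, Ch25h, the largest ratio either way per list among genes with 30 UMIs, and the 8 most like the summed members. Acat2, Mvk, Mvd, Dhcr7 and Stard4 were named after their values were seen. Some genes that the rule names are not reported here. Coordinates are from GENCODE vM21 and count from 1.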

Additional observations from a re-analysis of the deposited data

How the results depend on the processing

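No paired analysis was possible because each genotype is 1 library. The summed log2 ratio of the 8 genes stayed below 0 in all cells and in the 6 classes compared under every alternative but a 5% mitochondrial limit, where it was 0.70 in mature B-like cells (42 null-labelled and 105 control-labelled cells left, median gene 0.71) and 0.06 in T-like cells (50 and 66 cells left). Over all cells it was -0.80, and -0.61 with TMM factors, -0.67 without globin, mitochondrial, ribosomal and immunoglobulin genes and -0.67 as a mean over cells. In erythroid-like cells it was -1.15, and -0.32 with TMM, -0.65 without those genes and -0.73 as a mean over cells. TMM moved the erythroid median gene from -0.81 to 0.07, with Fdft1 at 0.87 and Insig1 at 1.01. In plasmacytoid dendritic cell-like cells the summed ratio was -2.43 and ranged from -2.68 to -2.41.

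Counts of members 2-fold lower were small and moved with the minimum. Over all cells 1 became 0 with TMM, without the named genes and with 50 CPM in either library, and 4 with 10 UMIs and no minimum CPM. In immature neutrophil-like cells 1 became 0 with TMM, with separate clustering and with 50 CPM, 2 without the named genes and 6 with 10 UMIs. In B precursor-like cells 0 became 1 without the named genes and at 5% mitochondrial, and 2 with 10 UMIs. In erythroid-like cells 0 became 2 and 6, in mature B-like and T-like cells 0 became 1 and 1, without the named genes and with 10 UMIs, and in monocyte-like cells 1 became 3 with 10 UMIs. T-like cells had 0 higher and 1 with 10 UMIs. The genes most like the 8 shared 0 of 8 with Spearman's rho and 0 of 8 without the plasmacytoid dendritic cell-like profile. The Insig1 share was higher in the null-labelled library in 6 of 6 compared classes under each of 3 alternatives added after seeing the data. No null-labelled cell was mature neutrophil-like in the joint clustering, and 5.58% were with each library clustered alone. The cause of these moves was not tested. Most members have under 100 UMIs per class and library, which limits single-gene ratios.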
